A study of Mus musculus with 9 samples.

Results

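The glioma lines described here are those with little Erbb3 transcript among the 6 mouse glioma lines of a series of 9 arrays, and they are set against cultured neural stem and progenitor cells (NSC). Lines with an Erbb3 level below log2 9 were taken, which left 3 lines: Hras line 2, Hras line 3 and Erbb2 line 3. The lines were chosen by the Erbb3 level alone, with earlier results of these data known. Erbb3 itself is therefore given without a test. It had log2 levels of 8.49, 5.99 and 4.96 in Hras line 2, Hras line 3 and Erbb2 line 3, against 6.06, 5.10 and 5.00 in NSC 1, 2 and 3. Hras line 2 lay just inside the limit and above all NSC arrays, and the line just outside it, Erbb2 line 2, had 9.94. The remaining glioma lines, Hras line 1 and Erbb2 line 1, had 11.03 and 11.36. Low Erbb3 is therefore low relative to the other glioma lines, and not relative to NSC.

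Per the labels, DNA was electroporated in vivo, the subventricular zone of the electroporated side was dissected, and the cells were cultured with EGF and FGF, sorted for strong GFP and replated. Hras lines 2 and 3 carried an EGFP-tagged Hras G12V, and Erbb2 line 3 carried EGFP and Erbb2 V664E joined by a P2A peptide. Both are activated forms, of a small GTPase and of a receptor tyrosine kinase upstream of it. NSC 1 carried a membrane EGFP, NSC 2 an EGFP-tagged histone 3.3, and for NSC 3 the listed constructs include no EGFP. All arrays of both groups share the construct TagBFPnls-V5 and the plasmid pBase. The glioma lines, NSC 1 and NSC 2 came from CD1 mice, while NSC 3 came from C57/Bl6 mice with a floxed Dnm2 gene, and its labels disagree: the source name gives cells purified by EGFP, while the description names a sort for the blue protein and no Cre. The labels give no ages, do not say which cells the promoters drive, and leave unsaid whether each line had an animal of its own, so p-values reflect how much these cultures vary, and that variation may be technical. Of markers that define neural stem cells, Sox2 had log2 levels of 10.57, 10.92 and 10.79 and Fabp7 13.79, 13.83 and 13.84 in NSC 1, 2 and 3. Choosing lines by Erbb3 also narrows the spread of genes that vary with it, so p-values describe these lines. A bulk culture with fewer cells of a type cannot be told apart from one with less RNA per cell.

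Interferons are secreted signals of infection. Type I interferons bind the receptor of Ifnar1 and Ifnar2, the kinases Jak1 and Tyk2 phosphorylate Stat proteins, and these join Irf9 in a complex that enters the nucleus and binds promoters at an element built of GAAA repeats. Its targets include sensors of viral RNA, antiviral effectors, the brake Usp18, which removes the ubiquitin-like Isg15 and blocks the receptor, and genes of MHC class I. Erbb3 is a neuregulin receptor that signals by pairing with Erbb2, and in the brain it is expressed with Sox10 in oligodendrocyte precursors. Gliomas are often placed between a state with precursor genes such as Pdgfra, Sox10 and Erbb3 and a mesenchymal state with matrix, adhesion and cytokine genes.

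Promoters of interferon response genes are shown for the called members of the list whose 250 bases before the start hold the GAAA repeat, because these letters are what the Irf9 complex reads. The motif searched was GAAA, any 2 bases and GAAA, on both strands. The windows are RefSeq's for GRCm38.p6, Irgm1 at chr11:48871421-48871670 and Bst2 at chr8:71537473-71537722, both on the minus strand. They are written 5′ to 3′ on the gene's strand up to the base before its start, with the motif in capitals.
Irgm1: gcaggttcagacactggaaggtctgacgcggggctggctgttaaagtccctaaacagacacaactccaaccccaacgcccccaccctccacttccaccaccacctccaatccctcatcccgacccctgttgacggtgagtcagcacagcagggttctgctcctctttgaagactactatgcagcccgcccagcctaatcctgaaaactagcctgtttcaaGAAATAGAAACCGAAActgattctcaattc
Bst2: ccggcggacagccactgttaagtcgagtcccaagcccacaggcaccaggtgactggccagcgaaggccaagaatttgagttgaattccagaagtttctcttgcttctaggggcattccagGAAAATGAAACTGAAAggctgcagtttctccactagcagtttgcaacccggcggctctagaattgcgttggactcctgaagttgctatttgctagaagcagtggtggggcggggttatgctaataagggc
Each window held 2 matches that overlap by a shared GAAA, ending 14 bases before the start in Irgm1, a GTPase of resistance to intracellular pathogens, and 114 bases before it in Bst2, which tethers budding virus. The motif occurred in 12 of the 34 interferon list members with a window (35.3%), in 10 of 92 genes called higher in the Erbb3-low lines (10.9%), in 1 of 22 called lower (4.55%) and in 520 of 14883 tested genes with a window (3.49%). Among called members of the list it occurred in 2 of 11 (18.2%), and among all windows in 978 of 32851 (2.98%). A match describes these letters only.

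Genes called higher in the Erbb3-low lines than in NSC included interferon response genes, adhesion and matrix genes and Pdgfra, and genes called lower included those of stem cells and astrocytes. Of 20690 genes tested, 156 were called (0.754%; limma, Benjamini-Hochberg adjusted p under 0.05), 128 of them higher (0.619%) and 28 lower (0.135%). In all 156 the 3 Erbb3-low lines lay on a single side of the 3 NSC arrays, which held for 2084 genes in the higher direction (10.1%) and 539 in the lower direction (2.61%) among all genes (either direction, 12.7%). The median size of a called difference was 2.34 on the log2 scale and the smallest was 1.23. Of the genes called higher, 27 had 1 or more NSC arrays below the lower quartile of gene means, log2 5.38, and 6 had all 3. Of those called lower, 7 had 1 or more Erbb3-low lines below it. The sizes of these differences rest in part on low signal. Over all genes the median difference was 0.08, and 12592 genes had a positive one. The arrays differ in level, with medians over genes of 7.19, 6.98 and 6.73 in the Erbb3-low lines and 6.81, 6.56 and 6.69 in NSC 1, 2 and 3. With each array shifted to a common median the median difference was -0.20 and 31 genes were called higher and 24 lower, so that the share called higher was 56.4% in place of 82.1%. It was 59.2% after quantile normalization (45 higher, 31 lower). Of the called genes named below and in the closing observations, Lgals9, Usp18, Itga8, Mlkl, Pdgfra, Myof, Irf9, Trim25, Xaf1, Ifi35, Lamb1, Ptgs2, Slfn8, Rfx4, Grm3, Ednrb, Plcd4, Nebl, Nrn1, Kcnj16, Egfr, Fgfr3, Trp53inp1 and Ntrk2 kept their call under both scalings, and the others lost it under at least 1 of them. Leaving out Erbb2 line 3, NSC 2, Hras line 3 or NSC 1 brought the count to 36, 39, 72 or 100.

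**Figure D1:**
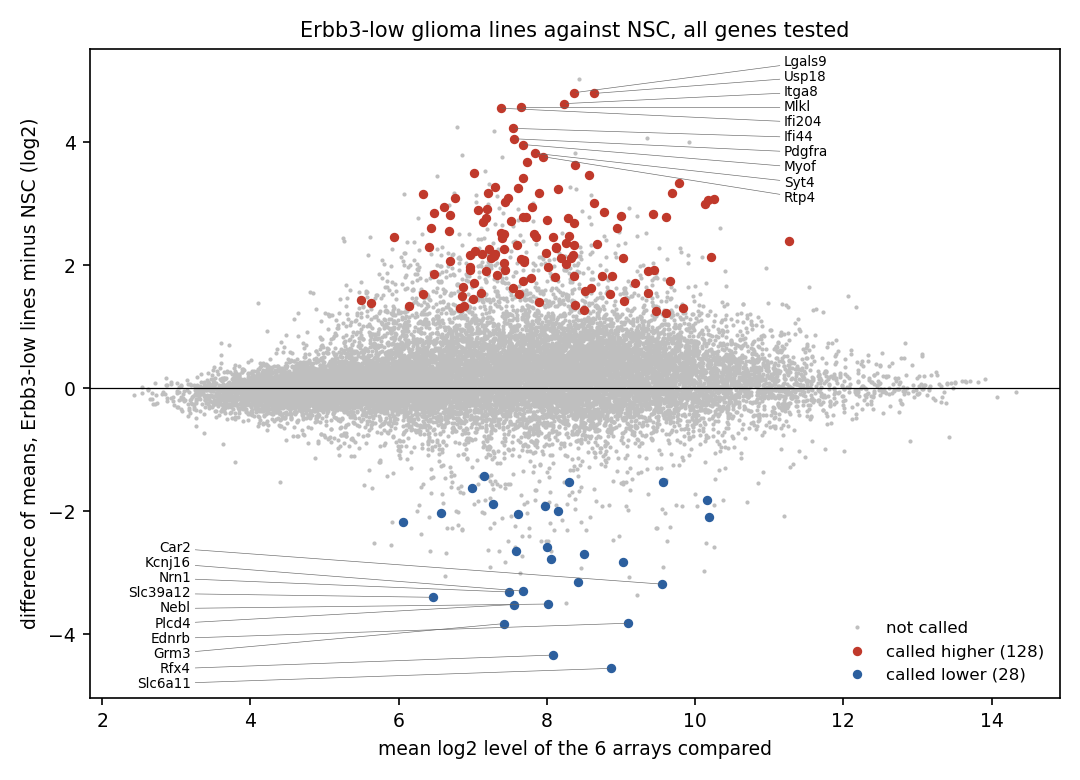
Difference of means between the Erbb3-low lines and NSC (log2, vertical axis) against the mean log2 level over the 6 arrays compared (horizontal axis) for 20690 genes, with the 128 genes called higher in red, the 28 called lower in blue and the 10 largest called rises and falls named. Called genes lie at differences of 1.23 or more in size, and more of them lie above 0 than below.

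The interferon response was the group with the most calls. Of its 47 listed genes in the table, 47 had a positive difference (12592 of all 20690 genes). Of these, 16 were called higher and 0 lower, against 0.619% and 0.135% of all genes. The list was assembled with results of these data known, so this count is a description. The median difference of its members was 2.28 in the Erbb3-low lines and -0.14 in the other glioma lines, each against the same NSC arrays. The mean over the list lay above its NSC mean by 1.53 in Hras line 2, 3.31 in Hras line 3 and 2.05 in Erbb2 line 3, while NSC 1, 2 and 3 lay at 0.08, -0.23 and 0.15. Hras line 3 was the highest of the lines and Hras line 2 the lowest, and no line overlapped NSC. With each array shifted to a common median 46 members stayed positive, with a median of 2.00 and 5 calls.

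Of the 8 listed interferon ligands, Ifnb1, Ifna4 and Ifnk lay below the lower quartile of gene means, 5.38, on every array of both groups, and Ifnl2 and Ifnl3 lay above it. Ifnb1, the interferon that many cells make on viral contact, had log2 levels of 5.22, 4.83 and 4.53 in the Erbb3-low lines, against 5.10, 4.66 and 4.75 in NSC. Of the 14 listed interferons, receptors and receptor kinases, 0 were called in limma's test and 3 had an unadjusted p under 0.05, all 3 higher. Among all 20690 genes 2302 had such a p, in either direction. The list's median of 0.17 was close to that of all genes and turned to -0.11 with arrays shifted to a common median, and ran between 0.07 (without NSC 3) and 0.31 (without Erbb2 line 3). Its largest differences were for receptor chains. Ifnar2 had 10.05, 10.24 and 10.84 in the Erbb3-low lines, against 8.96, 9.41 and 9.30 in NSC (difference 1.16, SE 0.26, limma adjusted p = 0.0799). Ifngr1, a chain of the interferon gamma receptor, had 10.01, 9.90 and 10.90 in the Erbb3-low lines, against 9.64, 9.23 and 8.60 in NSC (difference 1.11, adjusted p = 0.272). For both chains the lines lay above NSC without passing the threshold.

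Of the transcription factors downstream of the receptor, Irf9 was called higher, and Stat2 and Irf7 were not called. Irf9, the DNA-binding part of the complex, had log2 levels of 9.13, 9.72 and 9.45 in the Erbb3-low lines, against 6.75, 7.19 and 7.28 in NSC. It rose by 2.36 (SE 0.27, limma adjusted p = 0.0104), the lowest line lying well above the highest NSC array. Stat2 had 8.15, 9.68 and 8.33 in the lines, against 7.05, 6.59 and 7.80 in NSC (difference 1.57, adjusted p = 0.167), so that the highest NSC array came near the lowest line. Irf7, a factor that amplifies interferon production, had 7.51, 10.82 and 8.34 in the lines, against 5.66, 5.42 and 5.61 in NSC (difference 3.32, adjusted p = 0.0605).

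Among sensors of viral RNA, Ddx58 and Dhx58 were called higher, as was Trim25, the ubiquitin ligase that activates the Ddx58 product. Ddx58, which encodes RIG-I, had log2 levels of 10.38, 10.44 and 9.80 in the Erbb3-low lines, against 6.50, 7.87 and 7.66 in NSC, a rise of 2.86 (SE 0.41, limma adjusted p = 0.0197). Dhx58, which encodes its relative LGP2, had 7.58, 9.93 and 8.79 in the lines, against 5.49, 4.96 and 5.35 in NSC, a rise of 3.50 (SE 0.49, adjusted p = 0.0197). Trim25, the ligase, had 8.51, 9.55 and 8.74 in the lines, against 5.96, 5.93 and 5.11 in NSC, and rose by 3.26 (SE 0.40, adjusted p = 0.0136). Ddx58 was nearly even across the 3 lines, while Dhx58 differed among them by over 2 log2 steps. The remaining sensor of the list, Ifih1 (MDA5), had 7.55, 9.07 and 8.38 in the lines, against 5.37, 5.23 and 7.11 in NSC (difference 2.43, adjusted p = 0.0733), with NSC 3 above the other NSC arrays.

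Among effectors and feedback genes, the brake Usp18 showed the largest rise. Usp18 was the marker given with these lines, so its p-value describes it and is no independent support. It had log2 levels of 10.18, 12.20 and 10.73 in the Erbb3-low lines, against 6.59, 6.05 and 6.09 in NSC, and 6.62, 5.48 and 6.30 in the other glioma lines (Hras 1, Erbb2 1 and Erbb2 2). It rose by 4.79 (SE 0.49, limma adjusted p = 0.00648), with more than 3 log2 steps between the lowest line and the highest NSC array. Ifi44, a suppressor of viral replication, had 8.68, 11.52 and 8.78 in the lines, against 5.55, 5.16 and 5.60 in NSC, and rose by 4.22 (adjusted p = 0.0221). Rtp4, an interferon-inducible chaperone, had 8.68, 10.83 and 9.98 in the lines, against 5.89, 5.22 and 7.09 in NSC, and rose by 3.76 (adjusted p = 0.0221). NSC 3 was the highest of the NSC arrays for Rtp4, as for Oasl2. Xaf1, a promoter of cell death, had 7.22, 8.97 and 8.08 in the lines, against 5.51, 4.77 and 5.16 in NSC, and rose by 2.95 (SE 0.41, adjusted p = 0.0194). Other called members were Oasl2, Irgm1, Ifi35, Samd9l, Dtx3l, Bst2 and Parp14, with rises between 2.29 and 3.63. Irgm1 had 9.32, 10.83 and 10.76 in the lines, against 6.24, 6.67 and 7.58 in NSC (rise 3.47, adjusted p = 0.026), and Bst2 had 8.35, 10.51 and 9.11 in the lines, against 7.24, 6.56 and 6.77 in NSC (rise 2.47, adjusted p = 0.0471).

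Several members that usually stand for an interferon response were not called. Isg15, the ubiquitin-like modifier, had log2 levels of 6.59, 9.18 and 5.77 in the Erbb3-low lines, against 5.27, 5.20 and 5.52 in NSC (difference 1.85, limma adjusted p = 0.315). Ifit1, which binds foreign RNA, had 7.85, 9.70 and 8.93 in the lines, against 5.29, 4.76 and 7.88 in NSC (difference 2.85, adjusted p = 0.125). Mx1, an antiviral GTPase, had 4.99, 6.02 and 4.94 in the lines, against 4.90, 4.67 and 4.59 in NSC (difference 0.59, adjusted p = 0.541). Isg15 and Mx1 stood clear of NSC mainly in Hras line 3, and Ifit1 was nearly as high in NSC 3 as in Hras line 2. Trim30a was high in 2 of the 3 lines, with 5.85, 11.56 and 10.71 against 5.34, 5.28 and 4.94 in NSC (difference 4.19, adjusted p = 0.151). The calls of Usp18, Irf9 and Trim25 stood with any single array left out. The number of called members was 3 without Erbb2 line 3, 4 without NSC 2, 8 without Hras line 3 and 8 without NSC 1, while the list's median stayed between 1.87 and 2.51. Among the members above, the call ended without Erbb2 line 3 or NSC 2 for Dhx58 (3.48 and 3.34), Xaf1 (2.95 and 2.76) and Ifi44 (4.66 and 4.08), the last also without NSC 1 (4.28). It ended without Erbb2 line 3 (3.06) or Hras line 3 (2.75) for Ddx58, without any array but Hras line 2 for Bst2 (1.87 to 2.66), and without any but Hras line 2 and NSC 3 for Rtp4 (3.26 to 3.69) and Irgm1 (3.18 to 3.39). It also ended without Erbb2 line 3 or NSC 2 for Parp14 (2.36 and 2.26), and without these or Hras line 3 for Ifi35 (2.69 to 3.29). The same 3 arrays and NSC 1 each ended the calls of Oasl2 (3.04 to 3.65) and Samd9l (2.31 to 2.67), and any array but Hras line 2 ended that of Dtx3l (2.32 to 2.58).

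**Figure D2:**
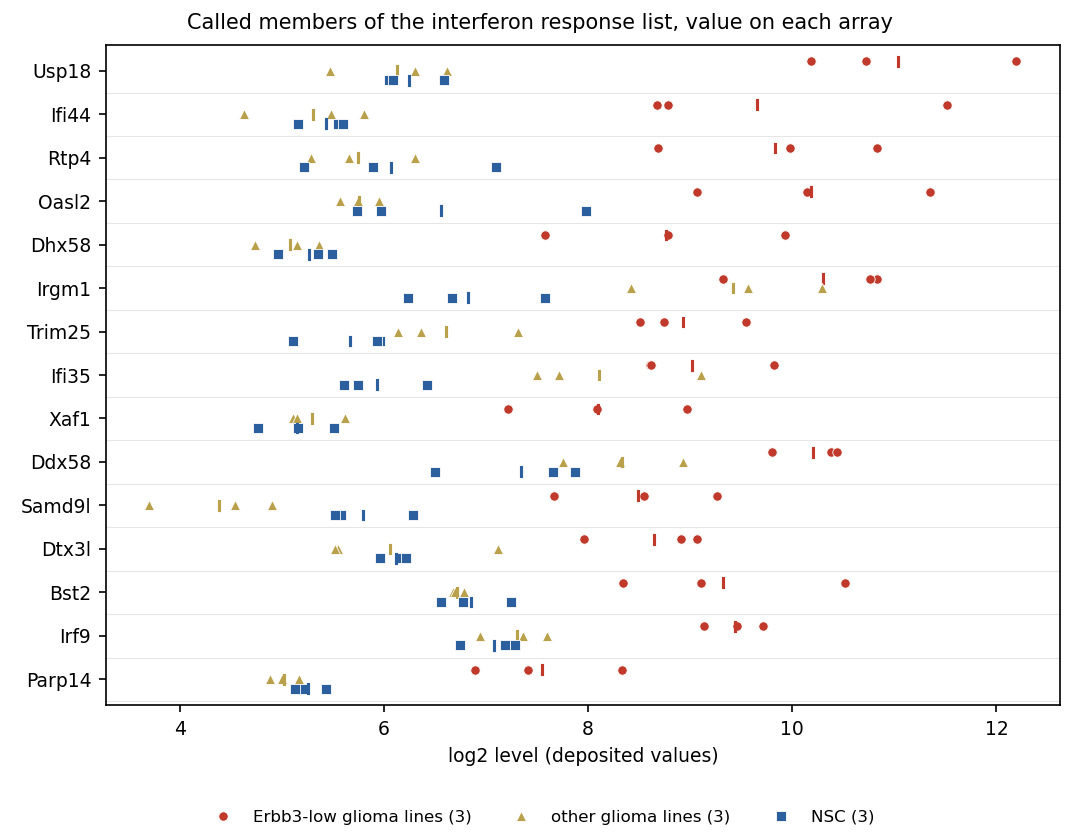
Deposited log2 level (horizontal axis) of called members of the interferon response list on each array, with 1 row a gene; points are arrays (Erbb3-low lines in red, other glioma lines in yellow, NSC in blue) and short bars are means of 3 arrays. In every row the 3 Erbb3-low lines lie right of the 3 NSC arrays, with Usp18 the most distant.

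Antigen presentation by MHC class I was higher in Hras line 3 and Erbb2 line 3 than in Hras line 2. The mean over its 23 genes lay above the NSC mean by 0.49 in Hras line 2, 2.04 in Hras line 3 and 1.79 in Erbb2 line 3. H2-Q4, a class I heavy chain, had log2 levels of 8.23, 11.44 and 11.19 in the Erbb3-low lines, against 6.83, 6.44 and 6.11 in NSC (difference 3.83, SE 0.77, limma adjusted p = 0.0605). The immunoproteasome subunit Psmb8 had 6.88, 10.45 and 9.13 in the lines, against 6.33, 5.62 and 5.75 in NSC (difference 2.92, adjusted p = 0.118). The peptide transporter Tap1 had 7.87, 10.51 and 10.30 in the lines, against 7.78, 7.74 and 7.47 in NSC (difference 1.90, adjusted p = 0.24). Hras line 2 lay close to the highest NSC array for Psmb8 and Tap1. In all, 22 of 23 members had a positive difference, with a median of 1.32, and limma called 0, with 16 at an unadjusted p under 0.05. Among all 20690 genes 12592 were positive and 2302 had such a p. Members of the H2 family are close in sequence, so their probes may share signal.

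The 10 largest called rises were Lgals9, Usp18, Itga8, Mlkl, Ifi204, Ifi44, Pdgfra, Myof, Syt4 and Rtp4. Lgals9, which encodes the immune lectin galectin-9, had log2 levels of 10.24, 10.92 and 11.16 in the Erbb3-low lines, against 5.89, 6.00 and 6.01 in NSC. It rose by 4.80 (SE 0.27, limma adjusted p = 0.000151), with little spread in either group. Mlkl, the executioner of necroptosis, had 9.27, 10.70 and 9.83 in the lines, against 6.68, 4.44 and 4.99 in NSC, and rose by 4.56 (SE 0.63, adjusted p = 0.0194). Ifi204, an interferon-inducible nuclear protein, had 8.00, 11.50 and 9.45 in the lines, against 5.09, 4.68 and 5.52 in NSC, and rose by 4.55 (adjusted p = 0.0202). Both showed their highest level in Hras line 3. The other glioma lines had means of 8.60 for Lgals9 and 8.21 for Mlkl, also above each NSC array. For Ifi204 their mean was 4.92, at the level of NSC.

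Itga8, the integrin chain that pairs with beta 1 to bind nephronectin, had log2 levels of 11.02, 9.20 and 11.43 in the Erbb3-low lines, against 6.22, 5.18 and 6.37 in NSC, and rose by 4.63 (SE 0.56, limma adjusted p = 0.0136). Myof, a membrane repair protein, had 9.67, 10.57 and 8.74 in the lines, against 5.69, 5.80 and 5.60 in NSC, and rose by 3.96 (SE 0.41, adjusted p = 0.00683). Syt4, a vesicle protein of neurons and glia, had 11.15, 9.68 and 8.43 in the lines, against 5.82, 5.67 and 6.32 in NSC, and rose by 3.82 (adjusted p = 0.0197). Itga8 and Syt4 were also high in the other glioma lines, with means of 10.66 and 11.67, while Myof, with a mean of 5.26 there, was at the level of NSC; the difference between the sets of glioma lines was not tested, since Erbb3 split them. The calls of Lgals9, Usp18, Itga8, Pdgfra and Myof stood with any single array left out. Mlkl was no longer called without Erbb2 line 3 (4.62) or NSC 2 (4.10), Syt4 without Hras line 3 (3.85), NSC 1 (3.76) or NSC 2 (3.68), and Ifi204 without Erbb2 line 3 (4.65), NSC 1 (4.55) or NSC 2 (4.34).

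**Figure D3:**
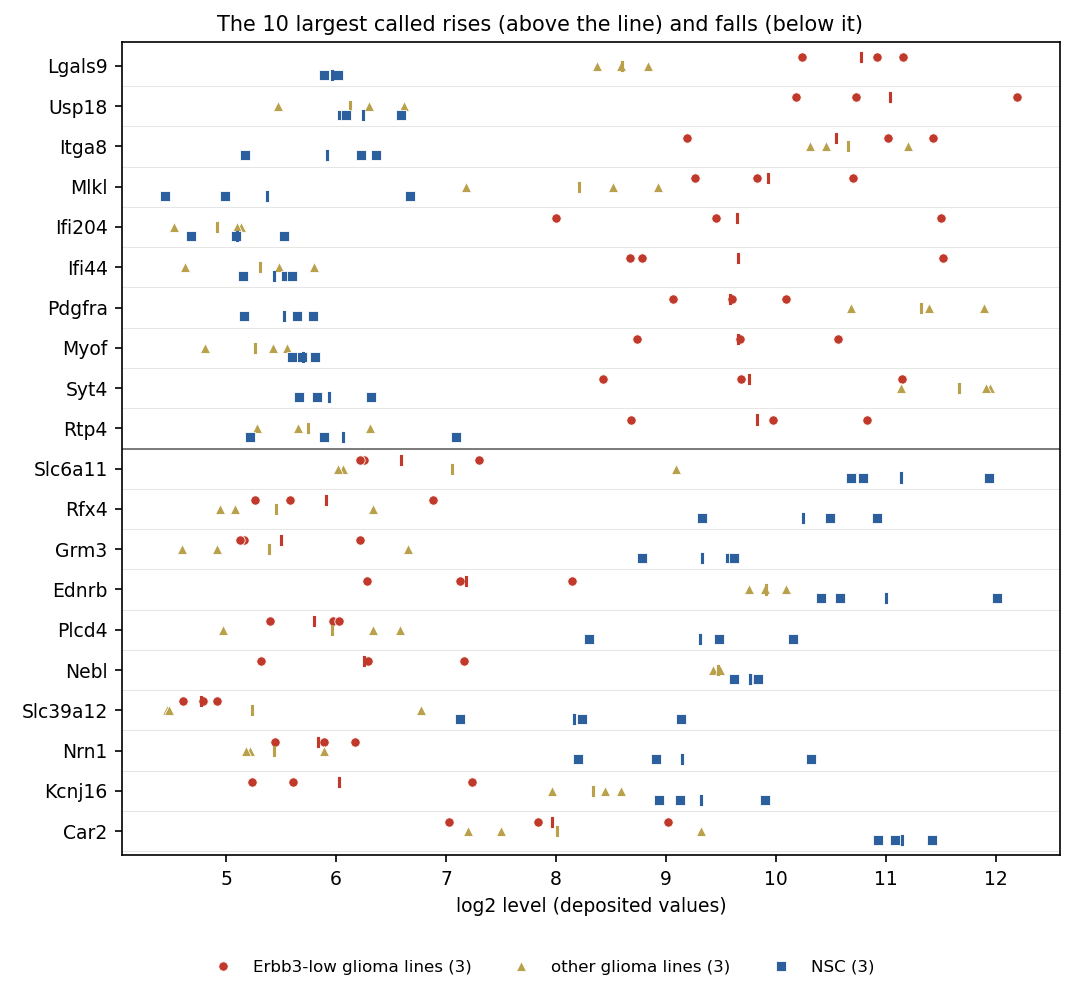
Deposited log2 level (horizontal axis) of the 10 largest called rises and, below the dividing line, the 10 largest called falls; points are arrays and short bars are means of 3 arrays, in red for the Erbb3-low lines, yellow for the other glioma lines and blue for NSC. Red and blue points do not overlap in any row. The other glioma lines lie with the Erbb3-low lines for Itga8, Syt4, Rfx4, Plcd4 and Nrn1, and with NSC for Usp18, Myof and Nebl.

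Mesenchymal glioma genes tilted upward without many calls. All 38 listed genes had a positive difference, with a median of 1.10, against 0.08 over all genes, and 1 was called higher. Among all 20690 genes 12592 were positive and 0.619% were called higher. The called member was Emp3, a membrane protein, with log2 levels of 9.84, 11.90 and 10.80 in the Erbb3-low lines, against 8.49, 7.24 and 8.31 in NSC (rise 2.83, SE 0.53, limma adjusted p = 0.0466). Spp1, the secreted ligand osteopontin, had the largest difference, with 11.37, 13.11 and 9.67 in the lines, against 8.66, 5.30 and 7.97 in NSC (4.07, adjusted p = 0.0898). Fn1, fibronectin, had 11.46, 11.23 and 10.28 in the lines, against 6.91, 9.10 and 10.45 in NSC (2.17, adjusted p = 0.281). NSC 3 reached the lowest line for Fn1. The list mean lay above NSC by 1.25 in Hras line 2, 2.02 in Hras line 3 and 0.50 in Erbb2 line 3. The call of Emp3 ended without Erbb2 line 3 (2.86), Hras line 3 (2.31) or any NSC array (2.45 to 3.07).

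Of 22 transcription factors of mesenchymal transition, 20 had a positive difference (12592 of all 20690 genes). The median was 1.07 and 1 was called higher, against 0.619% of all genes. Prrx1, a homeobox factor of mesenchyme, had log2 levels of 11.65, 11.72 and 11.73 in the Erbb3-low lines, against 8.66, 7.54 and 9.74 in NSC, and rose by 3.06 (SE 0.45, limma adjusted p = 0.0197). The 3 lines were nearly level for Prrx1, and NSC spread over 2 log2 steps. Its mean in the other glioma lines was 11.24. Its call ended without Erbb2 line 3 (3.04) or Hras line 3 (3.04).

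Among adhesion and matrix genes, 17 of 20 integrin chains, 9 of 11 laminin chains, 25 of 31 collagen genes and 28 of 37 proteases and inhibitors had a positive difference. This held for 12592 of all 20690 genes. In the same order of lists, the 3 Erbb3-low lines lay above all NSC arrays for 8, 2, 8 and 12 members, against 10.1% of all genes. Of the integrin chains 3 were called, all higher (0.619% of all genes): Itga8, Itga4 and Itga1. Itga4, the chain that binds Vcam1, had log2 levels of 10.32, 9.29 and 8.97 in the Erbb3-low lines, against 7.66, 6.86 and 7.09 in NSC, and rose by 2.32 (SE 0.40, limma adjusted p = 0.033). Itga1, a collagen receptor chain, had 9.32, 8.07 and 9.26 in the lines, against 6.32, 6.38 and 5.77 in NSC, and rose by 2.73 (SE 0.51, adjusted p = 0.0478). Of 11 laminin chains 2 were called, both higher. Lamb1 had 10.91, 10.20 and 10.12 in the lines, against 7.02, 7.54 and 8.25 in NSC, a rise of 2.81 (adjusted p = 0.0197), and Lama4 had 9.76, 9.02 and 9.04 in the lines, against 6.30, 7.27 and 5.41 in NSC, a rise of 2.94 (adjusted p = 0.0201). The other glioma lines had means of 10.40 for Itga4, 9.16 for Itga1 and 9.38 for Lama4, also above each NSC array. For Lamb1 their mean was 6.46, below NSC. The laminin median of 0.22 turned to -0.06 with arrays shifted to a common median, and ran between 0.05 (without Hras line 2) and 0.44 (without Hras line 3).

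Of 31 collagens and collagen-processing genes 2 were called, both higher (0.619% of all genes). Pcolce, which enhances procollagen cleavage, had log2 levels of 11.35, 10.64 and 11.83 in the Erbb3-low lines, against 8.23, 8.76 and 7.30 in NSC, and rose by 3.18 (SE 0.45, limma adjusted p = 0.0197). Loxl3, a collagen cross-linking oxidase, had 8.49, 9.43 and 10.39 in the lines, against 7.42, 7.38 and 7.00 in NSC, and rose by 2.17 (adjusted p = 0.0493). Of 37 matrix proteases and inhibitors, Adamts5, which cleaves aggrecan and versican, was the only call, with 8.72, 6.56 and 7.92 in the lines, against 5.38, 5.03 and 4.97 in NSC (rise 2.61, adjusted p = 0.0376). The other glioma lines had means of 11.28 for Pcolce, 8.74 for Loxl3 and 8.18 for Adamts5, also above each NSC array. None of 20 contractile genes of smooth muscle type was called in limma's test, with 8 at an unadjusted p under 0.05 (2302 of all 20690 genes). Leaving out Erbb2 line 3 ended the calls of Itga4 (2.60), Itga1 (2.54), Lamb1 (2.95), Lama4 (3.06), Pcolce (2.90), Loxl3 (1.69) and Adamts5 (2.51). Leaving out NSC 2 ended those of Itga4 (2.15), Itga1 (2.84), Lamb1 (2.78), Loxl3 (2.22) and Adamts5 (2.56). Leaving out NSC 1 ended those of Itga1 (2.81), Lamb1 (2.52), Lama4 (2.93), Loxl3 (2.24) and Adamts5 (2.73), and leaving out Hras line 2 those of Itga4 (1.93), Itga1 (2.51), Lamb1 (2.56), Lama4 (2.70) and Adamts5 (2.12). Leaving out NSC 3 ended those of Itga4 (2.27), Itga1 (2.53), Loxl3 (2.04) and Adamts5 (2.53), and leaving out Hras line 3 those of Itga4 (2.44) and Loxl3 (2.17).

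Secreted cytokines and chemokines had 29 of 35 positive differences, a median of 0.75 and 2 calls, both higher. Among all 20690 genes 12592 were positive and 0.619% were called higher. Cxcl14, a chemokine of epithelia and brain, had log2 levels of 8.42, 8.92 and 8.71 in the Erbb3-low lines, against 6.89, 6.52 and 7.28 in NSC, and rose by 1.79 (SE 0.26, limma adjusted p = 0.0197). Cxcl5, a neutrophil attractant, had 5.89, 6.50 and 6.24 in the lines, against 4.81, 4.80 and 4.69 in NSC, and rose by 1.44 (SE 0.23, adjusted p = 0.0236). All NSC levels of Cxcl5 lay below the lower quartile of gene means, 5.38. Cxcl14 was as high in the other glioma lines, with a mean of 8.67. The largest difference was that of Il33, an alarmin, with 8.60, 10.09 and 11.13 in the lines, against 6.87, 6.25 and 6.91 in NSC (3.26, adjusted p = 0.087). Cxcl10, an interferon-induced chemokine, had 9.05, 9.76 and 8.44 in the lines, against 5.83, 6.09 and 8.63 in NSC (2.24, adjusted p = 0.182), where NSC 3 lay above Erbb2 line 3. Ccl2 had 9.74, 9.54 and 10.70 in the lines, against 8.52, 6.89 and 8.18 in NSC (2.13, adjusted p = 0.0801). Both calls ended without Erbb2 line 3 (1.77 and 1.43), Hras line 3 (1.67 and 1.30) or NSC 2 (1.60 and 1.46), and that of Cxcl5 also without NSC 1 (1.46) or NSC 3 (1.40).

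**Figure D4:**
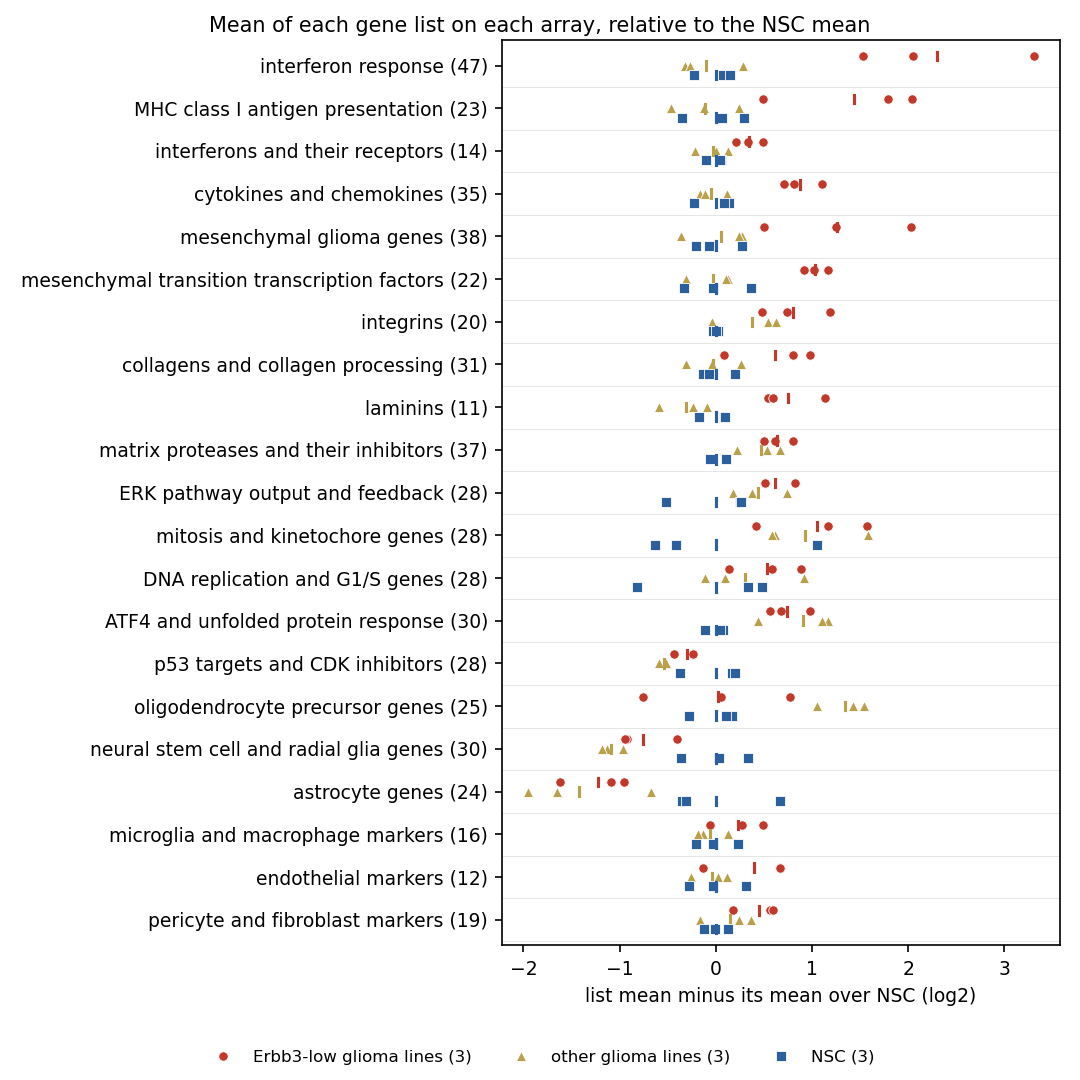
Mean log2 level of each gene list on each array minus its mean over NSC (horizontal axis), with the number of genes in brackets; points are arrays and short bars are means of 3 arrays, in red for the Erbb3-low lines, yellow for the other glioma lines and blue for NSC. The interferon response lies at 1.53 to 3.31 in the Erbb3-low lines, and the astrocyte genes lie at -1.62 to -0.96.

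Genes of stem cells and astrocytes were among the falls. The 10 largest called falls were Slc6a11, Rfx4, Grm3, Ednrb, Plcd4, Nebl, Slc39a12, Nrn1, Kcnj16 and Car2. Slc6a11, the GABA transporter of astrocytes, had log2 levels of 7.30, 6.25 and 6.22 in the Erbb3-low lines, against 10.79, 11.94 and 10.68 in NSC, a difference of -4.55 (SE 0.75, limma adjusted p = 0.0278). Rfx4, a transcription factor of the developing neural tube, had 6.89, 5.27 and 5.58 in the lines, against 9.33, 10.50 and 10.92 in NSC, a difference of -4.33 (SE 0.55, adjusted p = 0.0141). Grm3, a glutamate receptor of astrocytes, had 6.22, 5.16 and 5.13 in the lines, against 8.78, 9.59 and 9.62 in NSC, a difference of -3.82 (adjusted p = 0.0194). For all 3 genes Hras line 2 kept the highest level among the lines.

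Ednrb, the endothelin receptor of radial glia and astrocytes, had log2 levels of 8.14, 6.28 and 7.13 in the Erbb3-low lines, against 10.41, 12.01 and 10.58 in NSC, a difference of -3.82 (SE 0.51, limma adjusted p = 0.0183). Nebl, an actin-binding protein, had 7.16, 6.29 and 5.32 in the lines, against 9.62, 9.83 and 9.84 in NSC, a difference of -3.51 (SE 0.39, adjusted p = 0.00953). Nebl, Ednrb and Kcnj16 had means of 9.47, 9.91 and 8.33 in the other glioma lines, above all 3 Erbb3-low lines. Means there lay within the range of the Erbb3-low lines for Slc6a11 (7.06), Rfx4 (5.46), Grm3 (5.39), Plcd4 (5.97) and Car2 (8.01). Slc39a12 and Nrn1 had means of 5.24 and 5.43 there, below each NSC array. For Slc39a12 all 3 Erbb3-low lines lay below the lower quartile of gene means, 5.38. The zinc transporter Slc39a12, the neurite protein Nrn1, the phospholipase Plcd4, the potassium channel Kcnj16 and the carbonic anhydrase Car2 also fell, with differences of -3.40, -3.31, -3.51, -3.30 and -3.18 (adjusted p between 0.0197 and 0.0477). Only the call of Nebl, among the 10, stood with any single array left out. Leaving out Erbb2 line 3 ended the other 9, at differences between -4.36 for Slc6a11 and -2.90 for Kcnj16, and other arrays ended those of all but Ednrb (without NSC 2, -4.15 for Slc6a11, -4.21 for Rfx4 and -3.70 for Grm3).

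Of 30 neural stem cell and radial glia genes 21 had a negative difference, 3 were called lower (Rfx4, Ednrb and Egfr) and 0 higher, with a median of -0.70 (-0.44 without NSC 2). The other glioma lines had a median of -0.65. Of 24 astrocyte genes 21 were negative, 3 were called lower, Slc6a11 and Fgfr3 among them, and 0 higher, with a median of -1.01 (-0.58 without Hras line 3) and of -1.14 in the other glioma lines. Among all 20690 genes 12592 were positive, 0.135% were called lower and 0.619% higher.

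Growth factor receptors moved in opposite directions. Pdgfra, the PDGF receptor of oligodendrocyte precursors, had log2 levels of 10.10, 9.60 and 9.06 in the Erbb3-low lines, against 5.79, 5.64 and 5.16 in NSC, and rose by 4.06 (SE 0.37, limma adjusted p = 0.00437). It was higher still in the other glioma lines, with 11.89, 11.40 and 10.68. Its call stood with any single array left out. Egfr, the EGF receptor, had 8.14, 7.53 and 7.16 in the Erbb3-low lines, against 9.60, 10.71 and 11.001 in NSC, and fell by 2.83 (SE 0.42, adjusted p = 0.0197), while the other glioma lines had 5.59, 5.29 and 6.33. Fgfr3, the FGF receptor of astrocytes, had 7.29, 6.59 and 6.28 in the Erbb3-low lines, against 8.56, 9.59 and 9.73 in NSC, and fell by 2.57 (SE 0.38, adjusted p = 0.0197). The falls of Egfr and Fgfr3 ended as calls without Erbb2 line 3 (-2.60 and -2.35), Hras line 3 (-2.79 and -2.51) or NSC 2 (-2.69 and -2.42).

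The transgene's own genes were not called. Erbb2 had log2 levels of 8.37, 8.19 and 9.18 in the Erbb3-low lines, against 7.23, 7.74 and 7.24 in NSC, with the line labelled Erbb2 the highest (difference 1.17, limma adjusted p = 0.233). Hras (Hras1 in the table) had 9.29, 9.53 and 8.93 in the lines, against 9.81, 8.96 and 9.05 in NSC (difference -0.02, turning to 0.24 without NSC 1). Whether the probes read the transgenes is not given in the sources used here, so these values do not check the labels. Erbb4, the other neuregulin receptor, had 7.08, 5.75 and 5.45 in the lines, against 6.31, 9.48 and 9.30 in NSC (difference -2.27, adjusted p = 0.275).

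The oligodendrocyte precursor list, which holds genes that vary with Erbb3, was uneven among the lines. Its mean lay at 0.78 above NSC in Hras line 2, at -0.76 in Hras line 3 and at 0.06 in Erbb2 line 3, and at 1.43, 1.54 and 1.06 in the other glioma lines. Sox10, the factor that drives precursor genes, had log2 levels of 8.61, 6.56 and 6.17 in the Erbb3-low lines, against 6.71, 6.25 and 6.73 in NSC, and 10.59, 11.56 and 10.60 in the other glioma lines. It followed the order of Erbb3 among the lines. Cspg4, the proteoglycan NG2, had 8.93, 8.24 and 7.78 in the lines, against 6.63, 6.84 and 7.92 in NSC (difference 1.19, limma adjusted p = 0.369). Olig2 had 11.06, 9.17 and 10.65 in the lines, against 10.45, 11.22 and 11.20 in NSC. Hras line 3 was the lowest of the lines for Olig2. Of 25 genes only Pdgfra was called, against 0.619% of all genes called higher. The list's median of -0.07 ran between -0.58 without Hras line 2 and 0.29 without Hras line 3. No myelin gene was called among 18 in limma's test, with 1 at an unadjusted p under 0.05 (2302 of all 20690 genes).

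Etv1, Etv4 and Etv5, PEA3-type Ets factors that ERK signalling induces, did not pass the test. Etv1 had log2 levels of 11.66, 10.54 and 11.35 in the Erbb3-low lines, against 9.65, 10.75 and 10.82 in NSC (difference 0.77, SE 0.40, limma adjusted p = 0.547). Etv4 had 9.20, 8.83 and 8.86 in the lines, against 8.22, 9.21 and 7.88 in NSC (difference 0.53, adjusted p = 0.755). Etv5 had 10.89, 9.78 and 11.30 in the lines, against 9.02, 10.86 and 10.69 in NSC (difference 0.47, adjusted p = 0.934; -0.12 without NSC 1). The groups overlapped for all 3 factors. Of 28 genes of ERK output and feedback 2 were called, both higher (0.619% of all genes). Dusp4, a phosphatase that turns ERK off, had 11.13, 10.75 and 11.13 in the lines, against 7.84, 7.90 and 8.92 in NSC, and rose by 2.78 (SE 0.40, adjusted p = 0.0197). Maff, an early-response factor, had 7.53, 7.49 and 7.80 in the lines, against 6.62, 5.77 and 5.94 in NSC, and rose by 1.50 (adjusted p = 0.0484). The list's median was 0.49, or 0.24 without NSC 1. Both calls ended without Erbb2 line 3 (2.72 and 1.40) or NSC 2 (2.62 and 1.33), and that of Maff also without Hras line 2 (1.54), Hras line 3 (1.56) or NSC 3 (1.41).

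**Figure D5:**
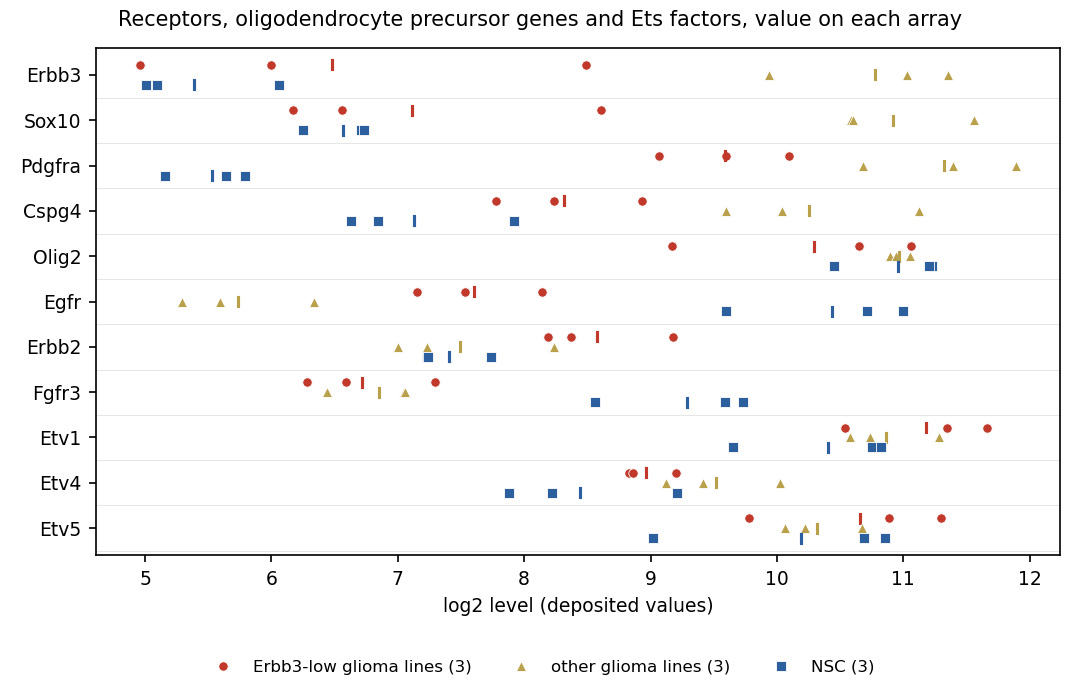
Deposited log2 level (horizontal axis) of receptors, oligodendrocyte precursor genes and PEA3 Ets factors on each array; points are arrays and short bars are means of 3 arrays, in red for the Erbb3-low lines, yellow for the other glioma lines and blue for NSC. Erbb3, which chose the lines, and Sox10 lie near NSC in Hras line 3 and Erbb2 line 3 and at 8.49 and 8.61 in Hras line 2, while Pdgfra lies above NSC in all lines.

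All 28 listed mitosis genes had a positive difference (12592 of all 20690 genes), with a median of 1.02. Of the 28, limma called 0, with 12 at an unadjusted p under 0.05 (2302 of all genes). The list mean lay at 1.17, 1.57 and 0.41 in Hras line 2, Hras line 3 and Erbb2 line 3, against 1.05, -0.42 and -0.64 in NSC 1, 2 and 3. NSC 1 was thus as high as the lines, and without it the median was 1.59. Cenpe, a kinetochore motor, had log2 levels of 9.06, 8.56 and 7.40 in the lines, against 6.44, 5.87 and 6.27 in NSC (difference 2.14, adjusted p = 0.0793). Outside the list, Foxm1, a transcription factor of mitotic genes named after its values were seen, had 9.21, 9.25 and 8.96 in the lines, against 7.54, 7.92 and 8.14 in NSC, and rose by 1.27 (limma adjusted p = 0.0496), a call that ended without any single array (1.11 to 1.41). Of 28 genes of p53 and the CDK inhibitors, Trp53inp1 and Btg2, both p53 targets, were called lower (0.135% of all genes). Trp53inp1 had 8.87, 9.51 and 9.39 in the lines, against 11.29, 11.35 and 10.58 in NSC, and fell by 1.82 (limma adjusted p = 0.02), and Btg2 had 7.32, 7.50 and 6.64 in the lines, against 9.17, 9.84 and 8.43 in NSC, and fell by 1.99 (adjusted p = 0.0455). Without Erbb2 line 3 or NSC 2 neither was called (-1.88 and -1.74, -1.68 and -1.65), nor without NSC 1 (-1.71 and -1.98), and Btg2 also not without Hras line 2 (-2.08) or Hras line 3 (-2.17).

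Of 30 genes of ATF4 and the unfolded protein response 26 were positive (12592 of all 20690 genes). Their median was 0.80, and 0.85 in the other glioma lines. Edem1, which sorts misfolded glycoproteins for degradation, had log2 levels of 10.13, 10.14 and 10.05 in the Erbb3-low lines, against 8.76, 8.98 and 8.80 in NSC, and rose by 1.26 (SE 0.21, limma adjusted p = 0.0274). The stress factor Atf3 had 7.94, 7.80 and 7.46 in the lines, against 6.53, 6.18 and 6.15 in NSC, and rose by 1.45 (adjusted p = 0.0359). Single calls came from other pathways: the netrin receptor Unc5b rose by 3.24 (adjusted p = 0.0265), the Wnt receptor Fzd1 by 2.14 (adjusted p = 0.0265) and Tgfbr3, a co-receptor for TGF-beta, by 1.34 (adjusted p = 0.0467). Without Erbb2 line 3 none of these 5 was called, at 1.29 for Edem1, 1.58 for Atf3, 3.18 for Unc5b, 1.88 for Fzd1 and 1.21 for Tgfbr3, and the same held without NSC 2, at 1.33, 1.39, 2.88, 2.33 and 1.29. Leaving out Hras line 3 ended the calls of Edem1 (1.25), Atf3 (1.41), Unc5b (2.86) and Tgfbr3 (1.31), leaving out NSC 1 those of Edem1 (1.22), Unc5b (3.43), Fzd1 (1.85) and Tgfbr3 (1.38), leaving out NSC 3 those of Edem1 (1.24), Atf3 (1.38) and Tgfbr3 (1.35), and leaving out Hras line 2 those of Atf3 (1.34) and Fzd1 (2.15). Genes of sterol synthesis (25), Notch (24), hypoxia and glycolysis (28) and DNA replication (28) gave 0 calls in limma's test. In the same order, 3, 8, 6 and 5 had an unadjusted p under 0.05, against 2302 of all 20690 genes.

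Markers of other cell types gave 2 calls, Prrx1 (higher) and Otx2 (lower). Among all 20690 genes 0.619% were called higher and 0.135% lower, and 2302 had an unadjusted limma p under 0.05. Of 16 microglia and macrophage markers 0 were called by limma (2 at an unadjusted p under 0.05), and the list's mean log2 level was 6.25, 6.03 and 5.71 in the Erbb3-low lines, against 6.00, 5.56 and 5.74 in NSC. The defining markers Ptprc (5.25, 4.99 and 4.75 in the lines, against 5.51, 4.80 and 5.06 in NSC) and Csf1r (6.03, 5.35 and 5.20 in the lines, against 5.75, 5.27 and 5.54 in NSC) lay near the lower quartile of gene means, 5.38, in both groups. Of 12 endothelial markers 0 were called (1 at an unadjusted p under 0.05), with list means of 6.42, 6.42 and 5.63 in the lines, against 6.07, 5.48 and 5.73 in NSC. Of 19 pericyte and fibroblast markers only Prrx1 was called, and list means were 7.02, 7.05 and 6.64 in the lines, against 6.59, 6.33 and 6.45 in NSC. Among ependymal and choroid plexus markers Otx2 fell by 2.17 (adjusted p = 0.0484), a call that ended without any array but NSC 3 (-2.33 to -1.86). All 3 Erbb3-low lines lay below 5.38 for Otx2. Of 14 lymphoid and blood markers 0 were called (0 at an unadjusted p under 0.05). The part of such cells in the interferon values was not tested beyond these levels.

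The lines and NSC were also mixed in sex-linked transcripts, and 0 of 5 such genes were called by limma. None of the 5 had an unadjusted p under 0.05, against 2302 of all 20690 genes. Xist, made from the inactive X chromosome, had log2 levels of 10.23, 9.69 and 3.97 in Hras line 2, Hras line 3 and Erbb2 line 3, against 7.08, 10.39 and 7.09 in NSC 1, 2 and 3. Eif2s3y, a Y-linked gene, had 4.01, 3.72 and 8.17 in the lines, against 9.02, 5.68 and 9.23 in NSC. Eif2s3y was high and Xist low in Erbb2 line 3, the reverse held in Hras lines 2 and 3, NSC 2 had the highest Xist of the 6 arrays, and NSC 1 and NSC 3 the highest Eif2s3y.

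The 3 lines were not alike in the extent of their change. Hras line 2 had 729 genes at least 1 log2 step above the highest NSC array and 73 at least 1 step below the lowest. Hras line 3 had 885 and 273, and Erbb2 line 3 had 658 and 216. All 3 lines passed these limits together for 180 genes above and 30 below. Of the 3, Hras line 2 had the fewest genes below NSC, the lowest interferon and MHC class I means and the highest precursor mean. None of these followed the order of Erbb3 across the lines. The counts use the deposited levels and so include differences in level between arrays. Hras line 2 had the highest array median, 7.19, against 6.98 in Hras line 3, 6.73 in Erbb2 line 3 and 6.56 to 6.81 in NSC.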

How the data were processed

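RNA of 9 cultures was hybridised to Affymetrix Mouse Gene 1.0 ST arrays, 1 array each (3 Hras lines, 3 Erbb2 lines, 3 NSC). The authors deposited a table of log2 values per gene, used here as given, and a table of linear intensity values per probe set, deposited without gene names and used only to find the scale. No source used here gives the background correction or normalization. The gene value matched a single probe set's intensity, after log2 and within 1e-04, for 20171 genes. Of 20715 rows, 25 with a number for a symbol were left out. Their number, 9, and not a read depth, limits the precision of the arrays.

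limma 3.58.1 in R 4.3.3 (lmFit, eBayes) fitted a mean for the Erbb3-low lines, the other glioma lines and NSC, sharing a spread (6 residual and 4.02 prior degrees of freedom). The contrast was Erbb3-low minus NSC, two-sided, with Benjamini-Hochberg adjustment over 20690 genes and a threshold of 0.05. In data simulated for this comparison over 20690 genes, 71 of 100 changes of 2 log2 steps and 95 of 100 of 4 were called, with 10 false calls. The simulated noise was normal and independent between arrays, with a spread per gene that was equal on every array and taken after the choice by Erbb3. Real arrays had estimated weights between 0.31 (NSC 1) and 3.50 (Hras line 3), so these rates need not hold for them. Erbb3, and Erbb3-low against other glioma lines, were not tested.

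The line set and the 36 gene lists (856 of 860 members matched) were chosen with earlier results of these data known. Usp18 was the marker given with the line set. Named genes are the 10 largest called rises and falls whose groups do not overlap, up to 6 called members of a list by adjusted p (otherwise up to 2 by difference), the receptors, Ets factors, construct genes and sex-linked genes. Predicted genes and receptor families of smell were passed over, and a few genes that the rule names are not reported here. Parp14, Ifi35, Irgm1, Samd9l, Dtx3l, Oasl2, Bst2, the uncalled interferon and MHC genes, Sox10, Cspg4, Olig2, Erbb4, Spp1, Fn1, Il33, Cxcl10, Ccl2, Foxm1 and the genes of the closing observations were named after their values were seen. Promoter windows came from RefSeq. Alternatives changed the scaling, the dim-gene filter (genes below the lower quartile of gene means, log2 5.38), the arrays in the fit, array weights and the spread used. Hras line 3 bears the number 4 in its description, and its title was followed.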

Additional observations from a re-analysis of the deposited data

How the results depend on the processing

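The count of 156 called genes depended on the processing. It was 55 with each array shifted to a common median (50 of them among the 156), 76 after quantile normalization (64 shared), 73 with all 6 glioma lines by label (57 shared), 36 with the 2 Hras-labelled lines only (28 shared) and 1087 with array weights (all 156 shared; Hras line 3 weighed 3.50 and NSC 1 0.31). Leaving out dim genes gave 176, and fitting the Erbb3-low lines and NSC alone 111. With the spread taken from the labelled groups limma called 0, with 2054 at an unadjusted p under 0.05, so all 69 named calls were lost. In simulated data that fit called 0 of 100 changes of 2 log2 steps and 0 of 100 of 4. Those changes were put in the Erbb3-low lines alone, which itself widens the spread of the labelled groups. The simulation therefore cannot give its power for genes changed in all glioma lines. With 1 array left out the count ran between 36 (without Erbb2 line 3) and 186 (without Hras line 2). All 69 called genes chosen for naming kept their sign in every alternative, but 44 lost their call with arrays shifted to a common median, 39 after quantile normalization, 54 with the replicate block, 58 without Erbb2 line 3 and 51 without NSC 2, and 10 stayed called without each array in turn: Lgals9, Usp18, Itga8, Pdgfra, Myof, Nebl, Irf9, Trim25, Ptgs2 and Slfn8.

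With the replicate number as a block 29 genes were called (27 shared), and the difference of Hras1 was 0.13. Deviations of same-numbered samples correlated with r between -0.34 and 0.44 (9 pairs, 4 over 0.1). For samples of different number r ran between -0.56 and 0.43 (18 pairs, 7 over 0.1). These ranges overlap and rest on few samples in each group, so they do not decide whether the numbers pair the samples.

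Of genes that were not called, some differences changed sign. Array weights gave -0.0205 for Cldn11, 0.13 for Hba-a1, 0.35 for Hras1, -0.52 for Etv5 and 0.45 for Xist, and the Hras-labelled lines alone gave 0.0480 for Alas2, 0.13 for Hras1 and 1.77 for Xist. With 1 array left out, differences ran between -0.21 and 1.07 for Cldn11, -0.47 and 0.0480 for Alas2, -0.18 and 0.24 for Hras1, -0.12 and 0.91 for Etv5, -1.36 and 1.77 for Xist and -0.20 and 1.02 for Sox10. The causes were not tested.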

Other observations

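The genes below were chosen after their values were seen, so their p-values describe them and support nothing. Detectors of foreign nucleic acid other than RIG-I and its relatives were also higher in the Erbb3-low lines. Tmem173, which encodes STING, had log2 levels of 12.07, 10.57 and 12.27 in Hras line 2, Hras line 3 and Erbb2 line 3, against 9.16, 9.02 and 7.72 in NSC 1, 2 and 3, a rise of 3.00 (limma adjusted p = 0.0307). Tlr3, the endosomal receptor of double-stranded RNA, had 9.41, 8.97 and 9.44 in the lines, against 6.57, 7.63 and 6.74 in NSC, a rise of 2.29 (adjusted p = 0.0194). Unc93b1, which carries such receptors to endosomes, had 7.45, 8.21 and 8.19 in the lines, against 6.43, 5.90 and 5.61 in NSC, a rise of 1.97 (adjusted p = 0.0199). The other glioma lines had means of 11.21, 8.81 and 7.76 for these 3 genes, also above each NSC array. Mb21d1, which encodes cGAS upstream of STING, had 6.95, 6.61 and 5.79 in the lines, against 5.32, 4.90 and 5.37 in NSC (1.25, adjusted p = 0.212). Without Erbb2 line 3 the calls of Tmem173 (2.69), Tlr3 (2.21) and Unc93b1 (1.85) ended, as did that of Tmem173 without Hras line 2 (2.79), NSC 2 (3.20) or NSC 3 (2.55) and that of Unc93b1 without Hras line 3 (1.84) or NSC 2 (1.93).

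Ptgs2, the inducible cyclooxygenase, had log2 levels of 8.28, 8.72 and 8.70 in the Erbb3-low lines, against 6.03, 5.77 and 5.58 in NSC, a rise of 2.77 (limma adjusted p = 0.00318). Slfn8, a Schlafen family gene, had 7.29, 8.52 and 7.89 in the lines, against 5.22, 5.02 and 4.91 in NSC. These NSC levels all lay below the lower quartile of gene means, 5.38, and the rise was 2.85 (adjusted p = 0.0136). Both calls stood with any single array left out. Hoxa5, a homeobox gene of the posterior body, had 8.43, 8.07 and 9.07 in the lines, against 5.60, 5.89 and 5.36 in NSC, a rise of 2.91 (adjusted p = 0.0197), which was no call without Erbb2 line 3 (2.63) or NSC 2 (3.04). Ntrk2, the receptor of BDNF, had 7.52, 5.92 and 6.58 in the lines, against 8.89, 10.11 and 9.33 in NSC, and fell by 2.77 (adjusted p = 0.0236), which was no call without Erbb2 line 3 (-2.73), Hras line 3 (-2.39) or NSC 2 (-2.44).

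The lines differed among themselves at neighbouring tumour suppressors. Cdkn2a had log2 levels of 10.16, 6.08 and 6.04 in Hras line 2, Hras line 3 and Erbb2 line 3, against 9.18, 8.61 and 7.56 in NSC (limma adjusted p = 0.884). Cdkn2b had 10.77, 6.63 and 6.40 in the lines, against 9.59, 9.64 and 8.39 in NSC (adjusted p = 0.795). Both were low in Hras line 3 and Erbb2 line 3 and high in Hras line 2. Mtap, a nearby gene, had 9.79, 10.63 and 9.01 in the lines, against 9.56, 8.54 and 9.03 in NSC, and was not low in any line.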
